A study of Mus musculus with 12 samples.

Results

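The genes described here are Hsd3b5, Elovl3, Cyp2d9, Slco1a1, Selenbp2, Nudt7 and Serpina1e, 7 of the 50559 genes counted in mouse liver. They were proposed as hepatocyte genes of the pulsatile growth hormone pattern, and were selected on their measured levels in these libraries, in particular their low HFD levels and the height of HFD replicate 2. Their levels and changes are therefore a description. Calls and intervals from the fit over all genes are printed for them as part of it, with no p-value of any one gene and with nothing resting on them. Livers of C57BL/6N mice were compared in 4 groups of 3 biological replicates: normal chow (NCD), a high-fat diet (HFD) fed for 12 weeks in which fat gave 60% of energy, and the high-fat diet with C1 (HFD+C1) or with C2 (HFD+C2). C1 and C2, called CYP4A inhibitors in the series title, were injected intraperitoneally at 5 mg/kg per day for 12 weeks. The labels used here give no sex, age, hour of sampling or vehicle injection, and do not name the structures of C1 and C2.

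The pituitary releases growth hormone in pulses in male rodents and more continuously in females. In hepatocytes, the hormone binds its receptor GHR, the kinase JAK2 phosphorylates STAT5, and each pulse sends STAT5B to the nucleus. The pulsed input is known to hold up a set of male-biased liver genes and to keep female-biased genes low; Cish and Socs2 are STAT5 targets that feed back on the receptor.

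NCD replicate 2 had the fewest reads counted in genes, 4281210, and HFD replicate 1 the most, 32124248. Levels are given as CPM, read counts scaled to a common total of reads counted in genes, on which a count of 3 corresponds to 0.0934 to 0.701 CPM. NCD replicate 1 and HFD+C2 replicate 1 stood apart, with 58.2% and 47.1% of reads not assigned to a gene, against 27.3% to 40.7% in the other 10 libraries. This share also differed between the diets without overlap, at 35.7% to 58.2% in NCD and 31.9% to 32.9% in HFD. Its part in the diet comparison cannot be told apart from that of the diet and was not tested. The hepatocyte marker albumin (Alb) reached 12718 CPM in NCD replicate 1, and 44055 CPM or more in the other 11 libraries. All 8 hepatocyte markers examined were above 0 in every library, and the adipocyte hormone genes Adipoq and Lep were at 0 to 0.467 CPM. The Y-linked genes Ddx3y, Kdm5d, Eif2s3y and Uty were above 0 in all 12 libraries, and Xist was at 0 to 3.04 CPM.

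Upstream sequences are shown for Hsd3b5, Slco1a1 and Serpina1e, the genes that differed most between HFD replicate 2 and the other HFD libraries. Each is the 250 bases before the RefSeq start on GRCm38.p6, read 5′ to 3′ on the strand of the gene: chr3:98645535-98645784 (minus), chr6:141946963-141947212 (minus) and chr12:103956898-103957147 (minus).
Hsd3b5: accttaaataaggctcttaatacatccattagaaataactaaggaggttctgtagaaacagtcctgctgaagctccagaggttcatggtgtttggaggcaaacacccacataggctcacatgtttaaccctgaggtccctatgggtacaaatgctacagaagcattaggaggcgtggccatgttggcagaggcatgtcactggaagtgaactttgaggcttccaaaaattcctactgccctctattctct
Slco1a1: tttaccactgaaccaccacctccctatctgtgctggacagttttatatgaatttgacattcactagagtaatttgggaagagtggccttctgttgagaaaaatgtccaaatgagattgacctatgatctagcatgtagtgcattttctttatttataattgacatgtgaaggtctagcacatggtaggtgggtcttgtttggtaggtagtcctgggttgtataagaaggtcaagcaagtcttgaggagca
Serpina1e: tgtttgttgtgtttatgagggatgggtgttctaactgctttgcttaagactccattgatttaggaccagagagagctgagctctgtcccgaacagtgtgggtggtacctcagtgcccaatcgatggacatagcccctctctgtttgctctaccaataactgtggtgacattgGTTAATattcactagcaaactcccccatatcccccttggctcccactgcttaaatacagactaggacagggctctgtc
Capitals mark a match to GTTAAT, an HNF1 half-site, 78 bases before the Serpina1e start. Windows were found for 6 of the 7 genes, Elovl3 being the one without. On both strands, TTCNNNGAA, the STAT5 consensus, matched in 0 of these 6 genes and in 8.13% of the 27025 genes with a window. The forkhead motif TGTTTAC matched in 0 of 6 and in 3.54% of all genes. GTTAAT, searched after the sequences were seen, matched in 1 of 6 and in 7.49% of all genes. A match is a description of letters, and its absence says only that these letters are not in this window.

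Hsd3b5 is a male-biased hepatic member of the 3-beta-hydroxysteroid dehydrogenase family that acts as a steroid reductase. Its gene lies on chromosome 3 at 98618636 to 98645534 (GRCm38.p6). Hsd3b5 was at 198, 323 and 307 CPM in NCD replicates 1 to 3 and at 13.9, 214 and 13.3 CPM in HFD replicates 1 to 3. HFD replicate 2 thus lay within the chow range and the other HFD libraries far below it. Hsd3b5 was at 24.9, 157 and 34.6 CPM with C1 and at 98.1, 88.7 and 128 CPM with C2. HFD+C1 repeated the layout of 1 high and 2 low libraries, whereas the 3 HFD+C2 libraries lay close together between them. From lowest to highest, the group means were 72.2 ± 73.6 CPM (HFD+C1), 80.6 ± 116 (HFD), 105 ± 20.2 (HFD+C2) and 276 ± 68.1 (NCD), each with SD and n = 3. Ranges overlapped between neighbours in this order except between HFD+C2 and NCD.

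Cyp2d9 encodes a male-biased cytochrome P450 that hydroxylates testosterone at the 16-alpha position, and lies on chromosome 15 at 82452377 to 82456827. Cyp2d9 was at 812, 1777 and 1338 CPM in the NCD libraries. The HFD libraries were at 1059, 1219 and 1035 CPM, the HFD+C1 libraries at 1102, 1401 and 1365 and the HFD+C2 libraries at 827, 602 and 1294. The ranges of all neighbouring groups overlapped, from the lowest mean in HFD+C2 (908 ± 353 CPM, SD, n = 3) to the highest in NCD (1309 ± 483). Cyp2d9 did not share the low HFD level of the other 6 genes.

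Elovl3 elongates very long chain fatty acids and lies on chromosome 19 at 46131897 to 46135694. Elovl3 was at 1164, 1067 and 1001 CPM in the NCD libraries. The HFD libraries were at 235, 423 and 253 CPM, the HFD+C1 libraries at 416, 227 and 279 and the HFD+C2 libraries at 137, 249 and 243. Every NCD library was above every library on the high-fat diet, and the 3 high-fat groups overlapped. Here the highest HFD+C1 library was replicate 1, not replicate 2.

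Nudt7, on chromosome 8 at 114133574 to 114154731, encodes a peroxisomal enzyme that hydrolyses coenzyme A. Nudt7 was at 1629.7, 824 and 877 CPM in the NCD libraries. The HFD libraries were at 203, 426 and 234 CPM, the HFD+C1 libraries at 307, 339.7 and 302 and the HFD+C2 libraries at 616, 375 and 305. On CPM the NCD libraries were again above all others, and NCD replicate 1, one of the libraries that stood apart, was the highest. HFD+C2 replicate 1, the other of them, was the highest of the high-fat libraries; after TMM scaling it was at 727, above NCD replicate 2 at 709.

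Slco1a1, on chromosome 6 at 141907281 to 141946962, encodes an organic anion transporter of the hepatocyte membrane. Slco1a1 was at 116, 178 and 171 CPM in the NCD libraries. The HFD libraries were at 25.2, 122 and 33.5 CPM, the HFD+C1 libraries at 39.4, 95.9 and 48.1 and the HFD+C2 libraries at 117, 82.5 and 136. The high library in HFD and in HFD+C1 was replicate 2, as for Hsd3b5, and HFD replicate 2 overlapped the chow range. The HFD+C2 libraries overlapped both NCD and HFD.

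Serpina1e encodes a secreted serine protease inhibitor of the alpha-1-antitrypsin family and lies on chromosome 12 at 103946931 to 103956897. Serpina1e was at 5389, 8453 and 7923 CPM in the NCD libraries. The HFD libraries were at 398, 1671 and 362 CPM, the HFD+C1 libraries at 892, 2318 and 604 and the HFD+C2 libraries at 371, 3712 and 936. On CPM, NCD did not overlap with any other group. With TMM scaling (edgeR's trimmed mean of M-values, used in the fits), NCD replicate 1, at 3895, was below HFD+C2 replicate 2, at 4064. In every group, NCD included, the highest library was the one numbered 2. The replicate numbers are names and the labels give them no other meaning.

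Selenbp2, on chromosome 3 at 94693573 to 94704406, encodes a selenium-binding protein of the liver. Selenbp2 was at 505, 278 and 259 CPM in the NCD libraries. The HFD libraries were at 13.8, 52.1 and 14.7 CPM, the HFD+C1 libraries at 14.4, 34.8 and 18.2 and the HFD+C2 libraries at 24.6, 16.2 and 28.6. The lowest chow library was far above the highest high-fat library, HFD replicate 2. In bulk tissue, fewer cells of a type and less RNA per cell cannot be told apart for any of these genes.

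**Figure D1:**
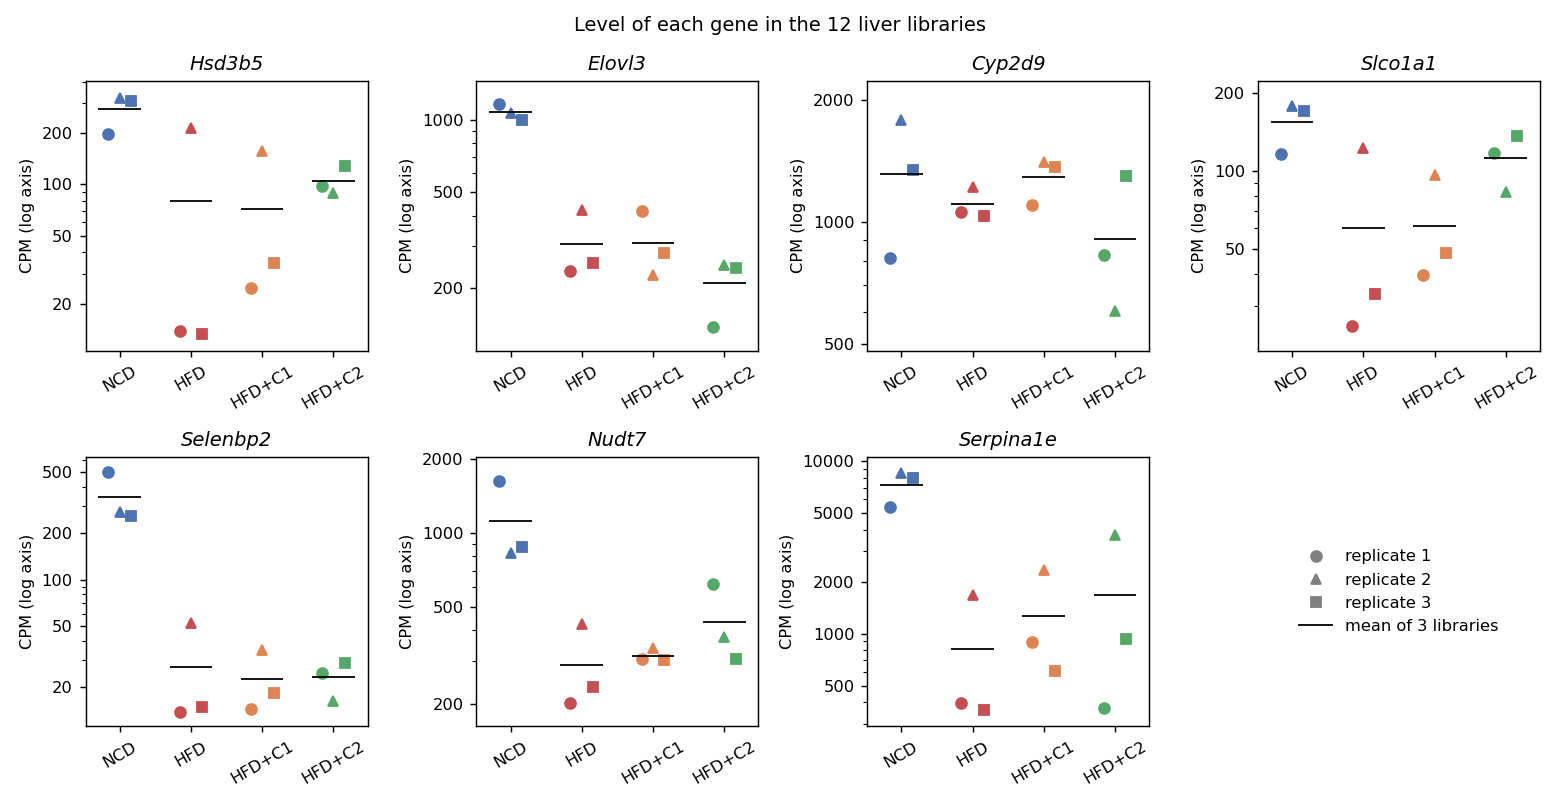
Each panel plots 1 gene, with CPM on a log axis against group; points are libraries, shaped by replicate number, and lines are means of 3 libraries. Elovl3, Nudt7, Selenbp2 and Serpina1e have no overlap between NCD and HFD, and HFD replicate 2 is the highest HFD library in all 7 panels.

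The diet comparison asked how the high-fat diet differed from chow. All 7 genes passed the filter, an average of 10 or more counts over the 6 libraries, and all 7 had a negative log2 change in HFD against NCD, with a median of -1.62 against -0.02 over the 13864 genes tested. Elovl3, Nudt7, Selenbp2 and Serpina1e, 4 of the 7, were called lower by edgeR's quasi-likelihood test at an adjusted p under 0.05, where 3.44% of all genes tested were called lower and 6.03% in either direction. The same 4 genes had non-overlapping groups, where 27% of all genes tested had HFD below NCD without overlap in CPM. These values chose the genes, so nothing is read from the counts. Cell markers moved with the diet as well: the sum of 8 hepatocyte markers was 35380.0 to 85049.6 CPM in NCD and 92321 to 114340 in HFD, and that of 3 adipocyte markers, nearly all Cidec, 2.03 to 6.07 CPM and 32.7 to 68.6. Alb made up most of the hepatocyte difference, with means of 35599 and 61022 CPM, and not all 8 went with it: Tat was at 887 to 1163 CPM in NCD and 426 to 637 in HFD. Sums for the 5 other liver cell types examined overlapped between NCD and HFD, but 5 of their 24 single markers did not. The stellate cell markers Col1a1 and Col3a1, both collagens, were at 0.821 to 1.62 and 8.90 to 12.4 CPM in NCD and 5.05 to 6.38 and 18.9 to 20.6 in HFD. The stellate cell marker Lrat was at 8.55 to 9.58 CPM in NCD and 10.3 to 13.1 in HFD, the endothelial marker Lyve1 at 0.467 to 1.42 and 2.82 to 5.09, and the Kupffer cell marker Cd5l, lower in HFD, at 70.7 to 209.6 and 44.05 to 66.1. The part of these markers in the levels of the 7 genes was not tested.

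Selenbp2 had the largest fitted change, -3.48 on the log2 scale (standard error 0.53), or 11.2-fold lower in HFD. Serpina1e was at -2.99 (standard error 0.59), 7.94-fold lower. Elovl3 was at -1.62 (standard error 0.24) and Nudt7 at -1.73 (standard error 0.33), 3.08-fold and 3.31-fold lower. Hsd3b5 had nearly the same estimate as Elovl3, -1.62, but a standard error of 0.95, with 1 of its 3 HFD libraries at the chow level. In limma, which averages log2 levels, Hsd3b5 was at -2.71 and Elovl3 at -1.66 (pseudocount 1). Slco1a1 was at -1.18 (standard error 0.53) and Cyp2d9 at -0.05 (standard error 0.30), the one of the 7 whose sign depended on the setting: it was at 0.10 with no filter on low counts. DESeq2 gave no adjusted p for Hsd3b5 and called the same 4 genes as edgeR. These changes are on libraries scaled by TMM; scaling by the total in genes shifted the median of all genes by -0.37 on the log2 scale in this comparison.

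For all but Cyp2d9, leaving out HFD replicate 2 gave a larger change with a smaller standard error. Without it, Hsd3b5 was at -4.11 (standard error 0.35), Slco1a1 at -2.16 (0.31), Serpina1e at -4.02 (0.36) and Selenbp2 at -4.34 (0.35), and 6 of the 7 genes were called, all but Cyp2d9, where 0.94% of the 13937 genes of that fit were called. The 2 HFD libraries left in it are those whose low levels chose the genes, so nothing is read from this count. Without HFD replicate 1 or without HFD replicate 3, 0 of the 7 were called, where 0.165% and 0.179% of all genes were called in those fits, with changes not far from those of all 6 libraries for the 4 called genes: Selenbp2 was at -3.17 and -3.18, Serpina1e at -2.67 and -2.63, Nudt7 at -1.54 and -1.59, and Elovl3 at -1.48 and -1.50. Without NCD replicate 3, 2 were called, Elovl3 and Selenbp2, against 3.55% of all genes. Without NCD replicate 1, 5 were called, Slco1a1 joining the 4 above at a log2 change of -1.40, against 13.7% of all genes. Calls over all genes thus moved with the library left out, from the 6.03% of the fit with all 6. Cyp2d9 changed sign between such fits, from -0.34 without NCD replicate 1 to 0.25 without NCD replicate 2.

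**Figure D2:**
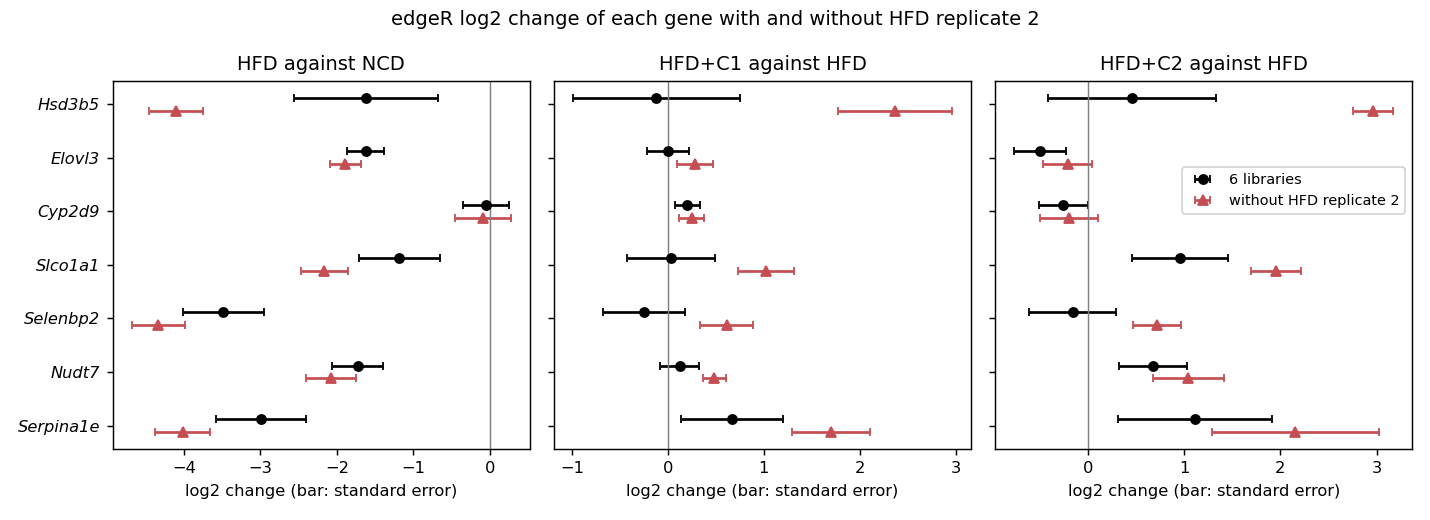
The edgeR log2 change of each gene (x axis; bars are standard errors) is shown for 3 comparisons, with all 6 libraries and without HFD replicate 2. Without that library, Hsd3b5 moves from -1.62 to -4.11 in the diet comparison, from -0.12 to 2.37 for C1 and from 0.46 to 2.96 for C2.

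HFD replicate 2 was the highest of the 3 HFD libraries for all 7 genes, where it was the highest for 47.4% of 13466 genes that averaged 10 or more counts over all libraries. Hsd3b5 in that library was 15.4-fold above the higher of the other HFD libraries, Serpina1e 4.20-fold, Slco1a1 3.64-fold and Selenbp2 3.55-fold. Nudt7 was 1.82-fold, Elovl3 1.67-fold and Cyp2d9 1.15-fold above. A level at least 2-fold above both others was thus reached by 4 of the 7 genes, and by 1.22% of all genes. This is a single library, so there is no test.

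Other genes of the growth hormone pattern were compared in the same library. Their lists, like the 7 genes, were chosen with earlier results of these data known, so their counts are a description. Of 16 other male-biased genes at this mean count, HFD replicate 2 was the highest HFD library for 14, and at least 2-fold above both others for 7, among them Cyp4a12a (3.05-fold), Cyp4a12b (4.33-fold), Mup1 (4.87-fold) and Egfr (3.28-fold). Cyp4a12a and Cyp4a12b encode male-biased fatty acid hydroxylases, Mup1 a major urinary protein and Egfr the epidermal growth factor receptor. Bcl6, a male-biased repressor of growth hormone target genes, went the other way, at 11.2, 4.16 and 11.9 CPM in HFD replicates 1 to 3. Of 13 female-biased genes, HFD replicate 2 was the lowest HFD library for 10, where it was the lowest for 29.2% of all genes. The feedback genes Cish, at 10.6, 22.5 and 10.4 CPM, and Socs2, at 3.33, 12.5 and 3.65 CPM, were highest in HFD replicate 2.

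HFD+C1 replicate 2 had the highest HFD+C1 level for 6 of the 7 genes, Elovl3 being the exception, where it was the highest for 25.7% of all genes. Hsd3b5 was 4.53-fold and Serpina1e 2.60-fold above the higher of the other HFD+C1 libraries, 2 genes at least 2-fold above, against 0.602% of all genes; with TMM scaling there were 4, Slco1a1 and Selenbp2 added. It was also the highest for 14 of 16 other male-biased genes and the lowest for 8 of 13 female-biased genes (38.1% of all genes). Cish and Socs2 did not follow: Cish was at 2.49, 0.398 and 4.88 CPM and Socs2 at 1.06, 0.883 and 1.64 CPM in HFD+C1 replicates 1 to 3, lowest in replicate 2. In HFD+C2, Serpina1e was lowest in replicate 1 (371 CPM) and highest in replicate 2 (3712 CPM), while in replicate 1 Hsd3b5 and Slco1a1 lay between the other HFD+C2 libraries.

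Markers of other cells were also read in HFD replicate 2. The summed level of 8 hepatocyte markers was 114340 CPM there, against 97247 and 92321 in HFD replicates 1 and 3, and of 5 Kupffer cell markers 168 against 120.0 and 133 CPM. The sums of the stellate cell (114 against 85.1 and 87.8 CPM), sinusoidal endothelial (81.3 against 67.4 and 61.7), cholangiocyte and lymphocyte markers were also highest of the group in HFD replicate 2. The lipid droplet gene Cidec, the one of 3 adipocyte markers above 1 CPM, was at 32.7 CPM in HFD replicate 2, and at 68.6 and 63.3 in replicates 1 and 3. In HFD+C1 replicate 2, Cidec was at 6.63 CPM, against 22.0 and 37.5 CPM. How far these differences enter the levels of the 7 genes was not tested.

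**Figure D3:**
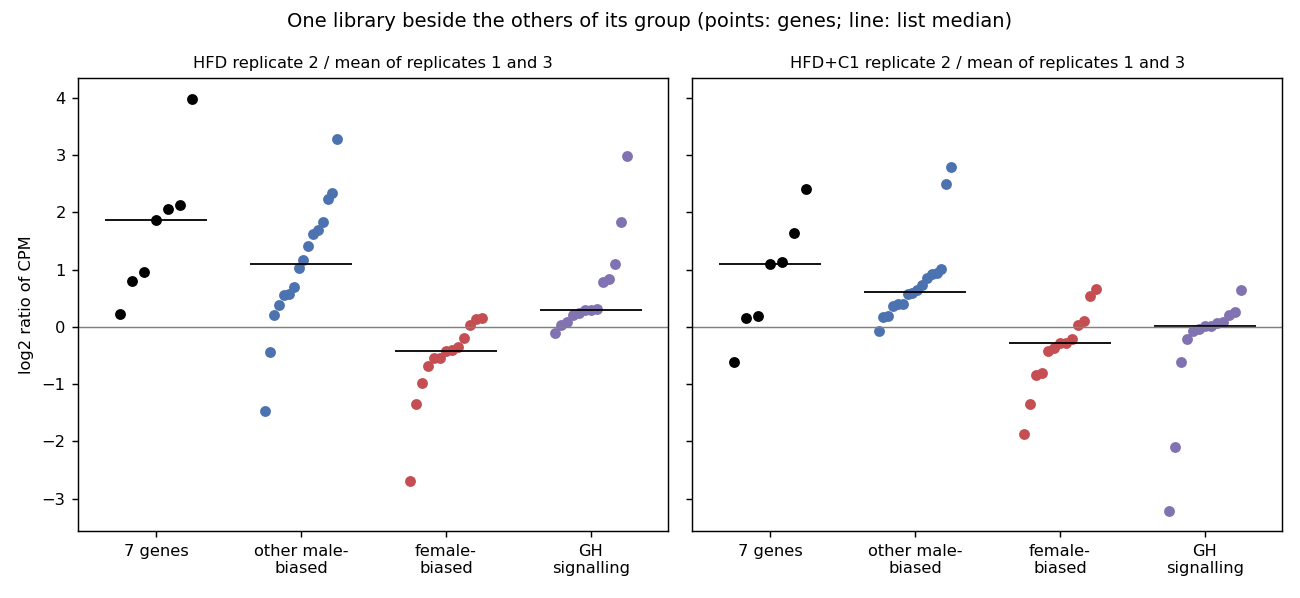
Each point is a gene; the y axis is the log2 ratio of its CPM in replicate 2 to the mean of replicates 1 and 3, in HFD (left) and HFD+C1 (right), by gene list, with lines at list medians. In HFD, all 7 genes and 14 of 16 other male-biased genes lie above 0, and Hsd3b5 is the highest point.

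The C1 comparison asked how HFD+C1 differed from HFD. By edgeR, 0 of the 7 genes were called, where 0.0524% of the 13358 genes tested were called; 0 of the 7 and 1035 of all genes tested reached an unadjusted p under 0.05, and limma and DESeq2 also called 0 of the 7, DESeq2 giving no adjusted p for Hsd3b5. The median log2 change of the 7 was 0.03 against 0.01 over all genes tested. Serpina1e had the largest estimate, 0.67 with a 95% interval from -0.48 to 1.82, and Hsd3b5 was at -0.12 with an interval from -1.999 to 1.76. The interval for Hsd3b5 allowed a several-fold change in either direction, and its sign turned with the method: it was at 0.53 in limma with a pseudocount of 1. Elovl3 was at 0.00 (-0.48 to 0.48), Nudt7 at 0.13 (-0.31 to 0.57) and Cyp2d9 at 0.20 (-0.07 to 0.48).

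Single libraries set the direction of several C1 estimates. Without HFD replicate 2, Hsd3b5 was at 2.37, Serpina1e at 1.70, Slco1a1 at 1.02 and Selenbp2 at 0.61, and 0 of the 7 were called, against 0.767% of all genes. Without HFD+C1 replicate 2, Hsd3b5 was at -1.43, Selenbp2 at -0.74, Slco1a1 at -0.47 and Serpina1e at -0.12.

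The C2 comparison asked the same of HFD+C2 and HFD. Again 0 of the 7 genes were called by edgeR, where 0.0222% of the 13503 genes tested were called; 0 of the 7 and 931 of all genes tested reached an unadjusted p under 0.05, and limma and DESeq2 called 0 of the 7, DESeq2 again giving no adjusted p for Hsd3b5. The median log2 change was 0.46 against 0.02 over all genes tested. Serpina1e was at 1.11 (95% interval -0.69 to 2.91), Slco1a1 at 0.96 (-0.15 to 2.07), Nudt7 at 0.67 (-0.12 to 1.47) and Hsd3b5 at 0.46 (-1.50 to 2.41). Elovl3 was at -0.50 (-1.10 to 0.11), Cyp2d9 at -0.25 (-0.82 to 0.31) and Selenbp2 at -0.16 (-1.17 to 0.86). In limma with a pseudocount of 1, Hsd3b5 was at 1.59 and Selenbp2 at 0.07.

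Without HFD replicate 2, Hsd3b5 was at 2.96 (standard error 0.21) and was called, the one gene of the 7 that was, against 0.0296% of all genes. The 2 HFD libraries left are the low ones for which the gene was chosen, so nothing is read from this call. In the same fit Slco1a1 was at 1.955 (0.26) and Selenbp2 at 0.72 (0.25). Hsd3b5 was at -0.03 without HFD replicate 1 and at -0.04 without HFD replicate 3, so its sign turned with the library left out. The 3 HFD+C2 libraries, at 88.7 to 128 CPM of Hsd3b5, lay above HFD replicates 1 and 3 and below HFD replicate 2. Serpina1e rested on 1 treated library: without HFD+C2 replicate 2 its log2 change was -0.29. Without HFD+C2 replicate 1, Serpina1e was at 1.58 and Nudt7 at 0.25. Each compound comparison and the diet comparison share the 3 HFD libraries, so a low or high HFD level enters all of them.

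C1 and C2 were given at the same dose and were compared directly, gene by gene. By edgeR, 0 of the 7 genes were called, where 0% of the 13229 genes tested were called. An unadjusted p under 0.05 was reached by 1 of the 7 and by 608 of all genes tested, and limma and DESeq2 called 0 of the 7. Slco1a1 was at 0.93 on the log2 scale in HFD+C2 against HFD+C1, with a 95% interval from 0.17 to 1.69. The genes were chosen on their levels in these libraries, so nothing is read from this count or this interval. Hsd3b5 was at 0.59 (-0.75 to 1.93), Nudt7 at 0.56 (-0.11 to 1.23), Serpina1e at 0.46 (-1.28 to 2.19) and Selenbp2 at 0.10 (-0.65 to 0.86). Elovl3 was at -0.49 (-1.10 to 0.12) and Cyp2d9 at -0.45 (-1.04 to 0.14). These intervals are too wide to show that the compounds acted alike on the 7 genes. Without HFD+C1 replicate 2, Hsd3b5 was at 1.90, and without HFD+C2 replicate 2, Serpina1e was at -0.95.

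Some of these genes have near-identical relatives with which they share stretches of sequence. On GENCODE M21 transcripts, 52.0% of the 50-base stretches of Selenbp2 occurred in Selenbp1, 27.6% of those of Serpina1e in Serpina1d, 18.2% of those of Hsd3b5 in Gm10681 and 10.7% of those of Cyp2d9 in Cyp2d12. Slco1a1 shared 2.18% with Slco1a4, and Elovl3 and Nudt7 shared 0%. With any other gene, the share was 35.6% for Serpina1e, 29.0% for Cyp2d9, 21.2% for Hsd3b5 and 2.26% for Slco1a1. Multimapping reads, 5.17% to 7.50% of a library, were held in a row that names no gene and were not counted in genes. Reads that match a relative equally well can thus be missing from the counts of Selenbp2, Serpina1e, Hsd3b5 and Cyp2d9. How many are missing was not tested, and the counting program is not given in the sources used here.

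The relatives that shared most with Selenbp2 and Serpina1e differed little between NCD and HFD. Selenbp1 was at 247, 277 and 253 CPM in NCD and at 242, 221 and 230.0 CPM in HFD (log2 change 0.05, standard error 0.17). Serpina1d was at 1898, 3399 and 3018 CPM in NCD and at 2325, 2901 and 2144 CPM in HFD (log2 change 0.02, standard error 0.28). On CPM, every HFD library of Selenbp1 was below every NCD library, so its direction depends on the scaling. Neither was called in the diet comparison (edgeR adjusted p 0.879 and 0.969). Hsd3b3, another enzyme of the Hsd3b5 family, was at 233, 319.5 and 215 CPM in HFD, so HFD replicate 2 was the highest there too, by much less than for Hsd3b5.

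The wider list of other male-biased genes held 17 names, of which 16 were tested in the diet comparison. This list, like the female-biased and signalling lists below, was chosen with earlier results of these data known. Its counts and values are a description and no independent support for the 7 genes. Of these, 3 were called lower and 0 higher, and 14 of 16 had a negative log2 change, with a median of -1.31 against -0.02 over all genes. Of all 13864 genes tested, 3.44% were called lower and 7139 had a negative change. Cyp7b1, an oxysterol hydroxylase of bile acid synthesis, fell by 1.77 on the log2 scale (standard error 0.30, edgeR adjusted p 0.0238), from 351 ± 66.2 to 89.5 ± 39.9 CPM (SD, n = 3). Gstp1, a glutathione transferase, fell by 1.52 (standard error 0.18, edgeR adjusted p 0.00718). Ugt2b38, a glucuronosyltransferase, fell by 3.69 (standard error 0.85, edgeR adjusted p 0.0454). Without HFD replicate 1 or 3, 0 of the list were called, against 0.165% and 0.179% of all genes. Without HFD replicate 2 there were 7, against 0.94%, and without NCD replicate 1 there were 10, against 13.7%. Ugt2b38 was not called without NCD replicate 2 either, and its log2 change ran from -5.51 to -3.20 over the fits that left out 1 library.

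Of the 24 female-biased genes, 14 were tested; 5 were called higher, where 2.59% of all genes were called higher, and 2 were called lower. The median was 0.78. Cyp2b13 rose by 4.97 on the log2 scale (edgeR adjusted p 0.00326), Cyp2b9 by 3.87 (adjusted p 0.00718) and Slc22a27 by 3.31 (adjusted p 0.0177). Cyp2b9 and Cyp2b13 encode female-biased cytochrome P450 enzymes and Slc22a27 a transporter. Cyp2b9 was at 5.98, 17.1 and 20.8 CPM in NCD and at 209, 144 and 211 CPM in HFD, with no overlap and with HFD replicate 2 the lowest of its group. Hao2, a peroxisomal hydroxyacid oxidase, rose by 2.50 (edgeR adjusted p 0.0264) and Abcd2, a peroxisomal transporter of fatty acids, by 2.49 (adjusted p 0.00431). Cyp2c40 and Cyp2c69, female-biased P450 genes as well, had log2 changes of -3.83 and -3.02 and were called lower (edgeR adjusted p 0.0254 and 0.0302), so the list did not move in 1 direction. Over the fits that left out 1 library, the change of Cyp2c40 ran from -4.16 to -2.81. Without HFD replicate 1 there was 1 call in the list, without HFD replicate 3 there were 2, and without HFD replicate 2 there were 4, in fits that called 0.165%, 0.179% and 0.94% of all genes.

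**Figure D4:**
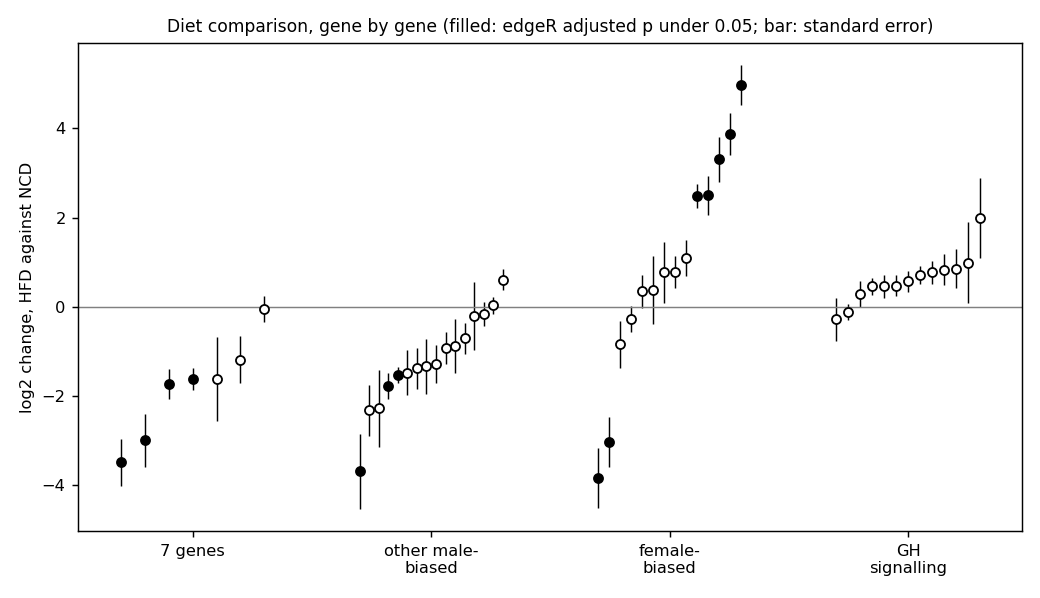
Each point is the edgeR log2 change of 1 tested gene in HFD against NCD (bars are standard errors; filled points have an adjusted p under 0.05), by gene list. The 7 genes run from -3.48 to -0.05, and the female-biased list has filled points on both sides of 0.

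Of 14 genes of growth hormone signalling, 13 were tested in the diet comparison and 0 were called by edgeR, with 5 at an unadjusted p under 0.05, a level reached by 4002 of all 13864 genes. DESeq2 called 2, where it called 16.6% of all genes with an adjusted p. The receptor gene Ghr had a log2 change of 0.47 (standard error 0.24), the transcription factor gene Stat5b -0.12 (0.18), the hormone's main hepatic output Igf1 0.77 (0.25), Cish 2.00 (0.89) and Socs2 -0.28 (0.48). Cish was at 0.609, 13.3 and 1.51 CPM in NCD, so its chow libraries ranged widely. Without NCD replicate 2, Cish was called, at 3.83, in a fit that called 8.89% of all genes. Igf1 was called without NCD replicate 1, at 0.93, in a fit that called 13.7% of all genes.

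With C2, Cish was at 0.951, 1.13 and 1.24 CPM in the 3 libraries, against 10.6, 22.5 and 10.4 CPM in HFD, and fell by 3.65 on the log2 scale (standard error 0.33, edgeR adjusted p 0.00753). It was 12.6-fold lower, with no overlap, and was 1 of 3 genes called in this comparison. In a fit of all 12 libraries the edgeR adjusted p of Cish was 0.839, and 0% of all genes were called in this comparison. Cish was not called in the fits that left out HFD replicate 1 or HFD+C2 replicate 3, each of which also called 0% of all genes. The cause was not tested. With C1, Cish was at -2.54 (standard error 0.49, edgeR adjusted p 0.106) and Socs2 at -2.46 (0.46, adjusted p 0.0984), both without overlap and neither called; without HFD replicate 2, Socs2 was called, at -1.61. The difference between the compounds was not called for Cish (-1.12, adjusted p 0.841) or Socs2 (1.79, adjusted p 0.841). Bcl6 was at 11.2, 4.16 and 11.9 CPM in HFD and 21.3, 21.2 and 32.0 CPM in HFD+C2, a log2 change of 1.47 (edgeR adjusted p 0.695; DESeq2 adjusted p 0.0211). Of the other male-biased and the female-biased genes, 0 were called with either compound by edgeR; in the C1 comparison 1 and 2 genes, and in the C2 comparison 2 and 2, had an unadjusted p under 0.05 (1035 of all 13358 genes and 931 of all 13503), and DESeq2 called 1 of each list with C2 and 0 with C1, against 0.259% and 0.479% of all genes with an adjusted p.

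The 7 genes did not vary alike within groups. Over the 12 libraries, with each group centred on its own mean, log2 levels of Hsd3b5 and Slco1a1 had a correlation of 0.96 and those of Hsd3b5 and Selenbp2 0.86, while Cyp2d9 and Nudt7 had -0.36. Over the 21 pairs the correlation ranged from -0.36 to 0.96. These are descriptions of 12 libraries that share groups and scaling, and HFD replicate 2 and HFD+C1 replicate 2 carry much of the spread of Hsd3b5.

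Among 10126 genes that averaged 50 or more counts, the profile over the 12 libraries most like the mean of the 7 genes was that of Ces3b, a liver carboxylesterase, with a correlation of 0.97. Susd4 (0.95), the serine protease inhibitors Serpina3k (0.95) and Serpine2 (0.95), and Cyp7b1 (0.94) followed; Susd4 and Cyp7b1 are in the male-biased list. Ces3b was at 292, 375 and 369 CPM in the NCD libraries and at 89.9, 171 and 89.6 CPM in HFD. It was at 139, 163 and 141 CPM with C1 and at 127, 139 and 190.3 CPM with C2. Ces3b thus had the same high library in HFD, with a narrower spread than Hsd3b5. The most opposite profiles were those of Rcan2 (-0.96), Cdc42se1 (-0.94), Psd4 (-0.93), Lamb3 (-0.92) and Slc22a29 (-0.92). With Hsd3b5 alone in place of the mean, 1 of the 5 genes was shared at each end, Ces3b at the top and Cdc42se1 at the bottom.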

How the data were processed

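RNA of 12 liver samples was sequenced. The deposited tables hold the authors' read counts per gene: whole numbers with totals that differ between libraries, although the tables are called normalized. Per the submitters' processing notes, Trimmomatic 0.39, STAR 2.7 and DESeq2 were used, with the build mm10; the counting program, annotation and use of strand are not given in the sources used here. The 4 rows that name no gene were left out of library sizes and tests and held 27.3% to 58.2% of the reads. Coordinates and upstream sequences are from RefSeq (GRCm38.p6); 6 of the 7 genes had an upstream window.

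Each comparison used its own 6 libraries: genes averaging 10 or more counts, TMM scaling, edgeR 4.0.16 (R 4.3.3) quasi-likelihood test, Benjamini-Hochberg adjustment over all genes tested, and a call at an adjusted p under 0.05. Standard errors and 95% intervals were derived from the fitted change and its test statistic. CPM is scaled to the total counted in genes, and its floors cover counting error only. The script was tested on simulated data. Replicate pairs differed beyond sampling noise, so each library counts as 1 sample. Alternatives were DESeq2 1.42.0, limma 3.58.1 with pseudocounts of 1 and 0.1, other scalings and filters, the replicate number as a block, a fit of all 12 libraries, and leaving out each library.

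The members and lists were chosen with earlier results of these data known. Genes named were all members; the called genes of each list, up to 6 a list and comparison; Cish, Socs2, Igf1, Ghr, Stat5b and Bcl6; and the 5 genes most and least like the members. Relatives were named by shared transcript sequence, as no protein table was used here; Cyp4a12a, Cyp4a12b, Mup1, Egfr, Cidec, Alb, Tat, Col1a1, Col3a1, Lrat, Lyve1, Cd5l, Hsd3b3, Cyp2c69 and Acot3 were named after their values were seen.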

Additional observations from a re-analysis of the deposited data

Results flagged for a closer look

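Acot3, a peroxisomal acyl-coenzyme A thioesterase of the female-biased list, differed between the compounds in the direction of every library: all 3 HFD+C1 libraries (2.61 to 3.62 CPM) were below the HFD mean of 4.09 CPM, and all 3 HFD+C2 libraries (4.26 to 5.15 CPM) were above it. The direct comparison gave a log2 difference of 0.63 in HFD+C2 against HFD+C1 (standard error 0.22), which was not called (edgeR adjusted p 0.841). HFD replicate 2, at 2.49 CPM, was below all 6 treated libraries, so the place of the HFD mean depends on it.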

How the results depend on the processing

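Counts of calls depended on the filter on low counts, on the tool and on single HFD and NCD libraries. With no filter, the calls became 6 for the members (4 in the reported fit), 12 for the other male-biased list and 5 for growth hormone signalling in the diet comparison, 1 for the members, 1 for the female-biased list and 3 for signalling with C1, 2, 3, 2 and 2 for members, male-biased, female-biased and signalling with C2, and 1, 3, 1 and 1 in the same order for C2 against C1; of all genes, 12.7%, 0.69%, 0.531% and 0.551% were then called, against 6.03%, 0.0524%, 0.0222% and 0%. DESeq2 gave 7 male-biased and 2 signalling calls in the diet comparison, 1 signalling call with C1, 1 male-biased and 1 female-biased call with C2, and 1 male-biased call in C2 against C1, against 16.6%, 0.479%, 0.259% and 0.0227% of all genes. A fit of all 12 libraries gave 7 and 1 in the diet comparison and 0 signalling calls with C2, against 14.8% and 0%. The cause was not tested.

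The replicate numbers were not taken as pairs: same-numbered libraries correlated at -0.06, 0.27 and -0.14 in their deviations in the diet comparison. With the replicate block, male-biased calls in the diet comparison became 6, and with C1 there were 1 member call (Serpina1e) and 2 signalling calls, against 3.48% and 0.27% of all genes. In the diet comparison only the libraries numbered 2 correlated best with their own number, and in the C1 comparison none did. Leaving out 1 library, which moved the share of all genes called in the diet comparison from 0.165% to 13.7%, gave 0 to 6 member calls, 0 to 10 male-biased, 1 to 7 female-biased and 0 to 1 signalling calls in the diet comparison, 0 to 1 male-biased and 0 to 1 signalling calls with C1, and 0 to 1 calls each of members, female-biased and signalling genes with C2.

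Directions changed for several signalling genes and Bcl6. Stat5b in the diet comparison was at 0.064 with no filter. Bcl6 with C1 was at -0.14 and -0.20 in limma with pseudocounts 1 and 0.1 and at -0.24 with the block. Leaving out 1 library gave -1.11 to 0.034 for Socs2 in the diet comparison; -0.0065 to 0.061 for Ghr and -1.27 to 0.77 for Bcl6 with C1; -1.16 to 0.18 for Socs2 and -0.028 to 0.17 for Ghr with C2; and -0.085 to 0.21 for Igf1, -0.037 to 0.15 for Ghr and -0.23 to 0.072 for Stat5b in C2 against C1. With TMM scaling, mean Elovl3 in NCD was 889 against 1078 CPM, and in HFD replicate 2 the ratio was 1.07 for Cyp2d9 and 3.88 for Serpina1e. NCD replicate 2, the shallowest library, limits the precision of low genes in NCD.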
